A study of Arabidopsis thaliana with 8 samples.

Results

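The genes AT3G09630 and AT5G02870 of Arabidopsis thaliana both encode ribosomal protein L4 of the cytosolic ribosome and are treated here as a paralogue pair. The members were taken as the probe sets annotated to exactly 1 of these genes. That gave 2 probe sets, 258715_at for AT3G09630 on chromosome 3 and 250973_at for AT5G02870 on chromosome 5, out of 13513 probe sets with 1 gene and 22810 in all. RNA came from whole shoots of Col-1 plants with 4 rosette leaves, kept on agar plates in normal atmosphere with 16 h of light a day, and the harvest was 6 h after the day began. Every array carries RNA from such shoots with no other treatment, and the arrays differ, per the labels, only in the set of RNAs added to the sample. There were 7 such spike mixes and a reference spike mix, with 1 ATH1 array each, so no mix has a replicate. The labels do not name or quantify the added RNAs, and they do not say whether the arrays hold separate plants, so the spread between arrays may be technical. The series was made to compare array platforms, and no question about these genes is stated in the labels. The values below show how steadily the array read each of them over the mixes.

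L4 (uL4 in the newer naming) sits in the large, 60S subunit, where in yeast and bacteria a long loop of the protein lines the tunnel through which the nascent peptide leaves. Plants keep several gene copies for nearly every cytosolic ribosomal protein, and the copies are generally expressed together in growing tissue. In Arabidopsis, mutants of either L4 gene have been described with altered leaf shape and with defects in vacuolar trafficking and auxin response, which makes the level of each copy, and the balance between them, of interest in shoots.

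The arrays were alike at large. Between 73.7% and 77.1% of probe sets per array lay at or above a floor signal of 12.9, the 25th percentile of the table. The first principal component of the 11367 non-control probe sets with a mean at or above the table's median signal of 42.5 held 30.9% of their variance. Its loadings were 0.50, 0.44 and 0.33 for mixes 4, 5 and 6 and between -0.44 and -0.03 for the other arrays. For that reason the spread of each L4 gene, their balance and the Pearson r of both are given with and without these 3 arrays. Family pairs, the spread of the other ribosomal protein genes and the likeness to other genes were computed on all arrays only. The shoot label matched its markers. RCA, the Rubisco activase gene, had a signal from 2471 to 3546, LHCB4.1 from 3358 to 4427 and PSAE-1 from 2416 to 3854, while the root hair expansin genes EXPA7 and EXPA18 had 17.2 to 29.3 and 17.3 to 35.

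AT3G09630 was lowest on the array of mix 6. Its MAS5 signal was 1091 in mix 1, 1077 in mix 2, 1116 in mix 3, 988 in mix 4, 1067 in mix 5, 885 in mix 6 and 1048 in mix 7. The reference array gave 1063. Mix 6 was the lowest and mix 3 the highest, 1.26-fold above it. The mean was 1042 ± 73.5 (SD, n = 8 arrays), a coefficient of variation of 7.06%. In whole shoots, fewer cells of a type and less RNA per cell cannot be told apart in such a signal.

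AT5G02870 varied slightly more, and its low array was a different one. Its signal was 1309 in mix 1, 1329 in mix 2, 1291 in mix 3, 1073 in mix 4, 1220 in mix 5, 1321 in mix 6 and 1431 in mix 7. The reference array gave 1390. Mix 4 was the lowest and mix 7 the highest, 1.33-fold above it, and mix 5 was the next lowest. The mean was 1295 ± 110 (SD, n = 8 arrays), a coefficient of variation of 8.48%.

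**Figure D1:**
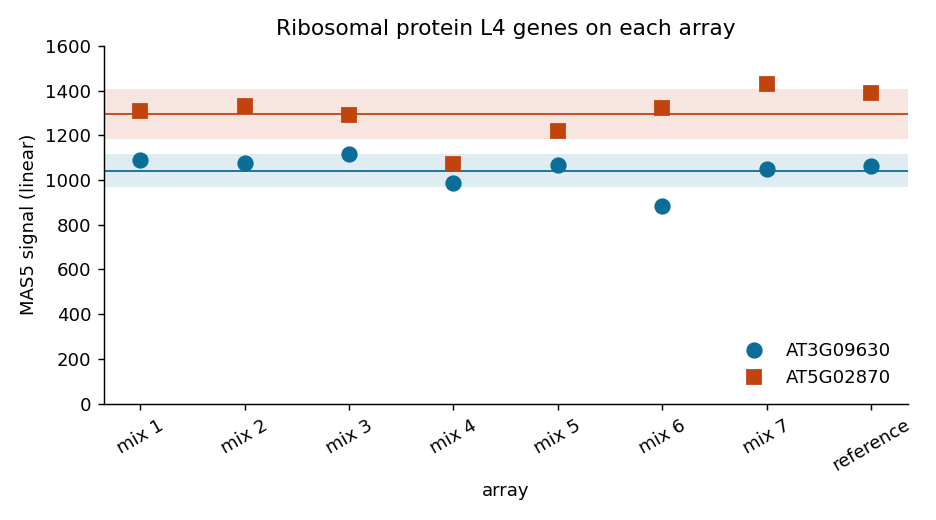
MAS5 signal (linear, from 0) of AT3G09630 (circles) and AT5G02870 (squares) on each of the 8 arrays, with each gene's mean as a line and 1 SD as a band. AT3G09630 is lowest in mix 6 at 885 and AT5G02870 is lowest in mix 4 at 1073. The probe sets have no common scale, so the distance between the bands is no ratio of RNA amounts.

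In the order of arrays of each gene, the lowest array stood furthest from its neighbour. All non-control probe sets were split into 4 equal bins of mean signal, and both genes fell in the brightest bin, of 5687 probe sets with a mean from 117 upward. There the log2 signal had a median SD of 0.12 across arrays. When the arrays were put in order of AT3G09630 signal, 1 of the 7 steps was larger than that median SD, the step of 0.16 (log2) from mix 6 to mix 4. In the order of AT5G02870, 1 of the 7 steps was larger too, that of 0.18 from mix 4 to mix 5. Steps between neighbouring values are mostly smaller than an SD in any set of this size, so these counts describe the order and test nothing. The other 7 arrays still spanned 0.18 for AT3G09630, from mix 4 to mix 3, and 0.23 for AT5G02870, from mix 5 to mix 7, both above that median SD.

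Neither gene was unusually steady or variable for its signal. The SD of log2 signal was 0.11 for AT3G09630, at percentile 42.0 of the brightest bin, and 0.13 for AT5G02870, at percentile 58.2. Without the arrays of mixes 4, 5 and 6 these SDs were 0.035 and 0.062, at percentiles 3.64 and 20.7. Without the array of mix 6 alone the SD of AT3G09630 was 0.055, and without that of mix 4 alone the SD of AT5G02870 was 0.074. In each case the array left out was the one farthest from the gene's mean, and leaving that out lowers the SD of any gene. Other probe sets were not each recomputed without their own farthest array, so how far these drops are particular to the pair was not tested.

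Relative to the reference array, each gene was past 1.2-fold in 1 mix, and both times it was lower. The log2 ratio of AT5G02870 was -0.37 in mix 4, a signal 77.2% of that on the reference array. The log2 ratio of AT3G09630 was -0.26 in mix 6, or 83.3% of the reference array, which lies just at the threshold; after quantile normalization it was -0.24 and no longer past it. After scaling to a common median AT5G02870 was past the fold in mix 5 as well, at -0.27, which made 3 values of the pair. With that scaling 15.8% of all probe sets were lower in mix 5, and their median ratio there was -0.08. Of all 11367 probe sets, 10.8% were at least 1.2-fold lower in mix 4 and 15.8% in mix 6. Of the 14 values of the pair, 2 were past the fold in either direction, or 14.3%, against 22.6% over all probe sets and mixes. The difference between these shares was not tested, and 14 values are too few to read it. The probe sets at large are also dimmer than the pair, with a median of 117 for their mean signals. With 1 array a mix the count has no replicate check.

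The other ratios were small. For AT3G09630 they ran from -0.11 in mix 4 to 0.07 in mix 3. For AT5G02870 they ran from -0.19 in mix 5 to 0.04 in mix 7, and they were below 0 in mixes 1, 2, 3, 5 and 6. All 7 ratios of a gene share the 1 reference array, on which AT5G02870 had its second highest signal. Against the mean of the other 7 arrays, AT5G02870 was at -0.30 in mix 4 and 0.17 in mix 7, and AT3G09630 at -0.27 in mix 6. With that comparator AT5G02870 lay above 0 in mix 1, at 0.02, in mix 2, at 0.05, and in mix 6, at 0.04.

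No joint movement of the genes was detectable over the arrays. Pearson r of their log2 signals was 0.18 (two-sided exact permutation p = 0.618, n = 8 arrays) and Spearman rho was -0.12 (exact permutation p = 0.793). Adjusted over 7 relations, these p-values were 0.721 and 0.977. Without mixes 4 and 6, the arrays farthest from the median of AT3G09630, r was -0.49 (exact permutation p = 0.318, unadjusted). Without mix 4 alone r was -0.10, and without mix 6 alone it was 0.58. After scaling to a common median r was 0.49. A p that misses the threshold does not show that the genes vary independently, and with 8 arrays the sign of r hung on 1 array.

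The balance of the pair, taken as log2 of the AT5G02870 signal over the AT3G09630 signal, is used only for its differences between arrays, since the affinities of the probes set its level. It was 0.26 in mix 1, 0.30 in mix 2, 0.21 in mix 3, 0.12 in mix 4, 0.19 in mix 5, 0.58 in mix 6 and 0.45 in mix 7. For the reference array it was 0.39. The reading shifted by 0.46 (log2), or 1.37-fold, between mix 4 and mix 6. It was tilted furthest towards AT3G09630 in mix 4, where AT5G02870 was low. It was tilted furthest towards AT5G02870 in mix 6, where AT3G09630 was low. The SD of the balance was 0.15 over the 8 arrays, and 0.17 would follow from the SDs of both genes with no correlation.

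Without mixes 4, 5 and 6 the balance had an SD of 0.096 and a range of 0.24 over 5 arrays. The mean of both log2 signals, which follows the pair as a whole, had an SD of 0.091 over 8 arrays and of 0.016 over those 5. On those 5 arrays AT3G09630 was lowest in mix 7, where AT5G02870 was highest, and highest in mix 3, where AT5G02870 was lowest. As deposited, the order of the 5 arrays was exactly opposite for the genes, and r was -0.95. Tests of r were kept to 6 arrays or more and these arrays were left after setting aside others by their values, so this r is given with no test. The exact opposite order did not hold under other scalings. With a common median AT3G09630 was highest in mix 1, at 0.03 (log2) from the reference array, and AT5G02870 lowest in mix 3, at -0.18. After quantile normalization AT3G09630 was highest in mix 3, at 0.14, and AT5G02870 lowest in mix 1, at -0.15. The r over these 5 arrays was not computed after either scaling. On the remaining arrays the mean of the pair lay 0.17 below its own 8-array mean in mix 4, 0.10 below in mix 6 and 0.02 below in mix 5.

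**Figure D2:**
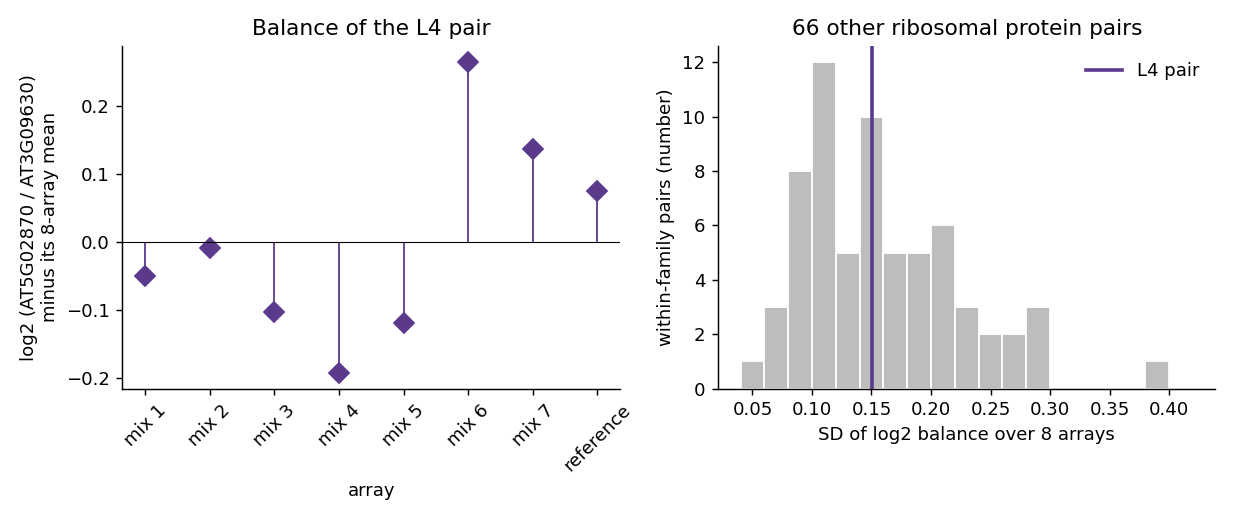
Left, the log2 ratio of the AT5G02870 signal to the AT3G09630 signal on each of the 8 arrays, minus its mean over the arrays. It is lowest in mix 4 at -0.19 and highest in mix 6 at 0.26. Right, a histogram of the SD of the same kind of balance over the 8 arrays for 66 other pairs of genes of 1 ribosomal protein family, with the L4 pair's 0.15 as a line, near the middle.

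Over all arrays, the spread of the L4 balance was ordinary for paralogues of ribosomal protein genes. The other pairs were not recomputed on fewer arrays. The list of cytosolic ribosomal proteins holds 229 genes of 80 families, assigned to families by locus, since the gene tables used here give most of them no name. A probe set of their own measured 132 genes of 59 families, the pair included, and 116 of these had a mean signal at or above 42.5. Among them were 66 other pairs within 35 families with both probe sets in the brightest bin, some sharing a gene. The SD of their log2 balance had a median of 0.15 and ran from 0.054 to 0.40. It was wider than that of L4 in 33 pairs and narrower in 33. The median r between their members was 0.17, and 31 of the 66 pairs had a higher r than L4.

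There were 21 other families with exactly 2 members in the brightest bin, of which 13 had a wider balance than L4 and 8 a narrower one. The narrowest was that of the L18a genes AT2G34480 and AT3G14600, with an SD of 0.054 and r = 0.81 over the 8 arrays. The widest of the 66 pairs was that of the S25 genes AT2G21580 and AT4G39200, with an SD of 0.40 and r = -0.41. L4 lies between these extremes. In 34 of the 66 pairs the array of mix 6 held the highest or the lowest balance, as it does for L4, and in 16 that of mix 4 did. Mix 6 also had the largest shares of all probe sets past 1.2-fold, 16.4% higher and 15.8% lower. The share of such extremes among pairs of probe sets at large was not computed, and pairs that share a gene are not independent.

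The other ribosomal protein genes were close to the reference array in every mix, and the low values of the pair were low against them too. The 114 others, 73 of the 60S and 41 of the 40S subunit, had median log2 ratios of 0.04, -0.03, -0.07, -0.07, -0.02, -0.04 and -0.04 in mixes 1 to 7. Over all 11367 probe sets these medians lay between -0.0041 and 0.0034. In mix 4, 2 of the 114 had a lower ratio than AT5G02870, and 40 a lower one than AT3G09630. In mix 6, 17 had a lower ratio than AT3G09630, and 46 a lower one than AT5G02870. In mix 7, 80 had a lower ratio than AT5G02870. With each gene instead taken minus its own 8-array mean, 8 of the 114 lay below AT5G02870 in mix 4. In the same way 13 lay below AT3G09630 in mix 6, and 106 below AT5G02870 in mix 7. Mixes 4 and 6 are singled out because a gene of the pair was lowest there, so a low place follows in part from that choice.

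Few of the 114 passed 1.2-fold in any mix, and as deposited the share was below that of all probe sets in each mix and direction but 1, the lower calls of mix 3. The list is also brighter, with a median of 617 for its mean signals against 117. In mix 1, 9 were higher and 9 lower, against 11.4% higher and 11% lower of all probe sets, or 7.89% of the list each way. In mix 2, 5 were higher and 6 lower, against 11% and 8.25% of all. In mix 3, 6 were higher and 10 lower, against 12.3% and 8.55%. The 10 in mix 3 are 8.77% of the list.

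In mix 4, 4 were higher and 11 lower, against 13.4% and 10.8% of all. In mix 5, 4 were higher and 7 lower, against 10.2% and 8.52%. In mix 6, 7 were higher and 17 lower, against 16.4% and 15.8%. The 17 are 14.9% of the list, and AT3G09630 comes beside them at the same threshold. In mix 7, 7 were higher and 8 lower, against 11.4% and 8.91%.

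The number of these calls, and the direction of calls over all probe sets, depended on how arrays were scaled. Among the 114 genes, lower calls were at least as many as higher ones in every mix and scaling. Scaling to a common median moved the median ratio of all probe sets to -0.11 in mix 4, -0.08 in mix 5 and -0.11 in mix 6. With it, 3 ribosomal protein genes were higher and 10 lower in mix 2, against 8.21% and 11.5% of all probe sets. In mix 3, 3 were higher and 23 lower, against 7.9% and 15.5%. In mix 4, 2 were higher and 27 lower, against 7.12% and 22.2%. In mix 5, 3 were higher and 14 lower, against 6.03% and 15.8%. In mix 6, 6 were higher and 33 lower, against 9.11% and 28.2%. In mix 7, 4 were higher and 16 lower, against 8.23% and 13.4%. The share of the list that was lower was then above that of all probe sets in mix 3 (20.2%), mix 4 (23.7%), mix 6 (28.9%) and, by the smallest margin, mix 7.

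Of all calls in mixes 1 to 7, between 24.3% and 47.0% were then higher, against 51.0%, 57.1%, 59.1%, 55.4%, 54.6%, 50.9% and 56.2% as deposited. After quantile normalization 7 were higher and 11 lower in mix 1, against 10.8% and 10.3% of all probe sets. In mix 3, 8 were higher and 8 lower, against 10.4% and 9.39%, and in mix 4, 4 were higher and 6 lower, against 11.1% and 12.1%. AT5G02870 was -0.49 in mix 4 under the common median and -0.38 under quantile normalization. Minus the median of all probe sets it was -0.37 as deposited and -0.37 after quantile normalization.

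**Figure D3:**
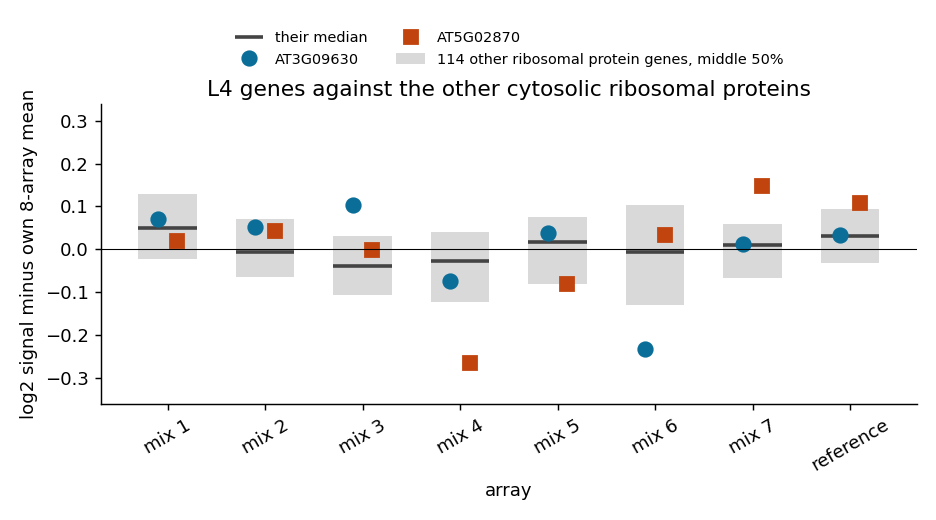
Log2 signal on each of the 8 arrays, minus each gene's own mean over the arrays, for AT3G09630 (circles), AT5G02870 (squares) and the 114 other cytosolic ribosomal protein genes (grey bars, middle 50%, with the median as a line). AT5G02870 in mix 4, at -0.27, and AT3G09630 in mix 6, at -0.23, lie below the bars. AT5G02870 in mix 7, at 0.15, and AT3G09630 in mix 3, at 0.10, lie above them, and AT5G02870 lies just past the bar's edge on the reference array, at 0.11, and in mix 5, at -0.08.

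The spread of the pair was also that of its list. The 102 other ribosomal protein genes in the brightest bin had a median SD of log2 signal of 0.11, with the middle 50% from 0.082 to 0.15. The SD was larger than that of AT3G09630 in 52 of them and larger than that of AT5G02870 in 36. The genes of the list with the highest mean signal were AT5G20290 (S8) at 2133 ± 347, AT3G60245 (L37a) at 2097 ± 198 and AT5G15200 (S9) at 1851 ± 137 (SD, n = 8 arrays). AT3G49910 (L26) had 1836 ± 161, AT3G09200 (P0, of the ribosomal stalk) 1770 ± 119 and AT4G27090 (L14) 1596 ± 177.

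AT5G15200 was lowest in mix 6 like AT3G09630, and AT4G27090 was lowest in mix 4 like AT5G02870, while AT5G20290 and AT3G09200 were highest in mix 4. The 4 widest SDs of the list were found in genes with mean signals far below its median of 617. AT3G02190 (L39), with a mean of 142 in the brightest bin, ran from 78.4 in mix 6 to 245 in mix 4, with an SD of 0.58, and AT3G55170 (L35), with a mean of 73.1, from 44.2 to 109, with an SD of 0.43. AT3G48960 (L13) and AT2G47570 (L18) had mean signals of 19.8 and 15.9, with values under the floor on 2 and 4 arrays.

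**Figure D4:**
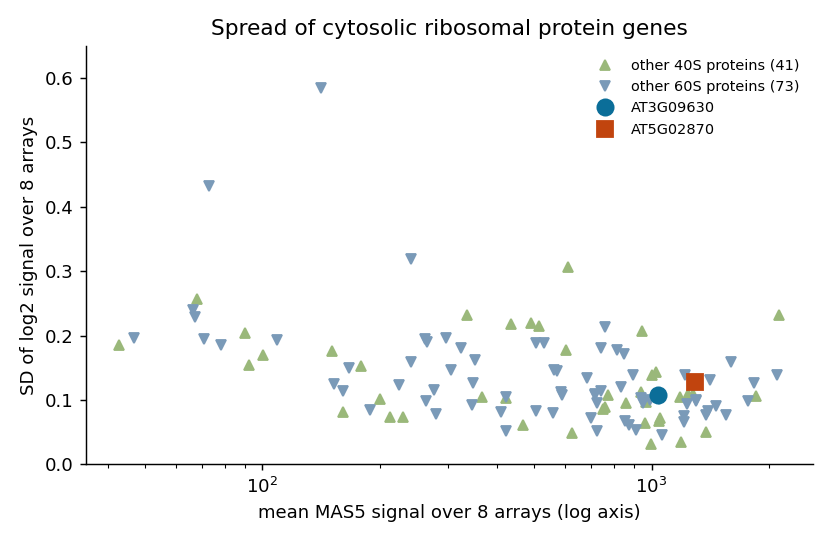
SD of log2 signal over the 8 arrays against mean MAS5 signal (log axis) for 73 other 60S genes, 41 other 40S genes and the L4 pair, each with a mean at or above 42.5. AT3G09630, with an SD of 0.11, and AT5G02870, with 0.13, lie among genes of like signal.

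The patterns most like each gene were sought among 6017 other single-gene probe sets with a mean at or above 42.5, by Pearson r of log2 signal over the 8 arrays. With so many probe sets and 8 arrays, high r occurs for many genes, and these values are a description. For AT3G09630, r was at least 0.9 for 46 probe sets, led by AT4G19390 (r = 0.98), AT5G57460 (0.97), AT3G04760 (0.97), GH9A3 (0.96), a member of the endoglucanase family that acts on cell wall glucans, and AT3G09050 (0.96). All 5 were lowest in mix 6. AT4G19390, for one, had 126 there and 178 in mix 3, its highest. The shared lowest array follows largely from the choice by r, since AT3G09630 was itself lowest in mix 6.

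For AT5G02870, r was at least 0.9 for 13 probe sets, led by AT1G78150 (r = 0.97), AT2G37190 (0.96), AT1G06980 (0.96), AT1G04850 (0.96) and AT3G50380 (0.94). All 5 were lowest in mix 4, which likewise follows largely from the choice by r with AT5G02870. AT2G37190 belongs to the L12 family of the 60S subunit and had 770 in mix 4 and 901 on the reference array, a narrower range than that of AT5G02870. Its paralogues AT3G53430 and AT5G60670 had r of -0.15 and -0.17 with AT5G02870. The partner paralogue ranked far lower: AT5G02870 was at place 2207 of 6017 for AT3G09630, and AT3G09630 at place 2044 for AT5G02870. Over the 114 other ribosomal protein genes, the median r was 0.02 with AT3G09630 and 0.07 with AT5G02870, beside -0.03 and -0.03 over all 6017.

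Genes of related function gave few further values. The mitochondrial member of the L4 family, AT2G20060, had 172 ± 11.1 (SD, n = 8 arrays), with 157 in mix 1 as the lowest and 190 on the reference array as the highest, and neither mix 4 nor mix 6 stood out. Of 17 ribosome biogenesis genes on the list, 5 were measured. AT5G14520 (PESCADILLO, needed for the maturation of the large subunit) had 165 ± 18.4 and AT5G60990 (the RNA helicase RH10) 132 ± 14.2, and both were lowest in mix 6. AT3G05060 (of the NOP58 family of nucleolar proteins) had 87.7 ± 12.7, lowest in mix 4, and AT3G15460 (of the BRX1 family) 42.9 ± 7.51, highest in mix 4. AT1G52930, also of the BRX1 family, fell outside the rule for named genes and is named after its values were seen. It had 110 ± 11.2, lowest in mix 6 and highest in mix 3 like AT3G09630, with r = 0.82 to that gene. The share of all probe sets lowest in mix 6 was not computed, so the lowest arrays of these genes are a description only. EIF4A-2, a translation initiation helicase, was the 1 gene measured of 18 translation factors, with 476 ± 30.4, highest in mix 4.

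Array quality was set beside the pair. The 3'/5' ratio, a sign of RNA integrity taken as the mean over 3 control transcripts (ubiquitin, actin and GAPDH), was highest in mix 4, at 1.64, and lowest in mix 2, at 1.48, and it was 1.51 in mix 6. Relative to the reference array, the hybridisation controls stood at 1.84-fold in mix 1 and at 1.62-fold in both mix 6 and mix 7. They reached at most 1.1-fold in the others. With the 3'/5' ratio, AT5G02870 had r = -0.52 (exact permutation p = 0.190, rho -0.29 with exact p = 0.501) and the balance r = -0.51 (exact permutation p = 0.194, rho -0.45 with exact p = 0.267). AT3G09630 had r = 0.10 (exact permutation p = 0.807, rho -0.31 with exact p = 0.462). Mixes 2 and 4 were farthest from the median of this ratio. Without them r was 0.02 for AT5G02870, -0.57 for the balance and 0.74 for AT3G09630 (exact permutation p = 0.146, unadjusted). After quantile normalization r over the 8 arrays was 0.65 for AT3G09630 (exact permutation p = 0.0916, unadjusted), -0.64 for the balance (exact permutation p = 0.0814, unadjusted) and -0.17 for AT5G02870. Over the 5 arrays without mixes 4, 5 and 6, with no test, r was -0.18 for AT3G09630, 0.39 for AT5G02870 and 0.32 for the balance.

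With the hybridisation controls, the balance had r = 0.53 (exact permutation p = 0.183, rho 0.24 with exact p = 0.582), AT5G02870 r = 0.39 (exact permutation p = 0.359, rho -0.05 with exact p = 0.935) and AT3G09630 r = -0.27 (exact permutation p = 0.594, rho 0.02 with exact p = 0.977). Without mixes 1 and 6 these r were 0.60, 0.50 and -0.02. Over the 5 arrays without mixes 4, 5 and 6, with no test, they were 0.12, 0.11 and -0.14, and after quantile normalization they were 0.45, 0.16 and -0.41 over 8 arrays. Over the 7 relations the smallest adjusted p was 0.454 for r and 0.977 for rho. No relation passed, which does not show that there is none.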

How the data were processed

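RNA of 8 shoot samples was measured on 1 array each. The deposited table holds a linear MAS5 intensity for each of 22810 probe sets per array; MAS5 is named, with no version, in the submitters' processing notes. The 2% trimmed mean was 100.0 on every array, so values were used as deposited. Gene names came from a platform annotation joined to TAIR10.1 genes, which held 13436 of the 13513 probe sets with 1 gene. For logs, values under 12.9 were set to that floor. Depth does not apply, and the number of arrays limits precision.

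No mix has a replicate, so mixes were compared by ratios to the reference array, a 1.2-fold threshold and the share of all probe sets past it. Correlations over at least 6 arrays used two-sided exact permutation tests over 40320 pairings with Benjamini-Hochberg adjustment over 7 relations, Pearson and Spearman apart. The 3'/5' ratio used the second-generation control probe sets, a choice made after values from the first-generation ones had been seen, and the hybridisation level was the median of 18.

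Both paralogues were named, with the 5 probe sets most like each, the 6 brightest and 4 most variable ribosomal protein genes, the measured organelle L4 gene, and the 2 brightest and 2 dimmest genes of the biogenesis and translation lists. Members and lists were chosen with earlier results of these data known. The yardstick for steps between arrays, the limits on the family pairs compared and the median r with other ribosomal protein genes were added after the values were seen. Alternatives were other scalings, thresholds, filters, comparators and sets of arrays. Simulated data with known changes were used to check the share past the fold, the likeness ranks and the SD of a pair's log2 ratio. The other steps were not run on simulated data. The software was numpy 2.4.6, scipy 1.17.1, pandas 2.3.3 and matplotlib 3.10.9 under Python 3.11.15.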

Additional observations from a re-analysis of the deposited data

Results flagged for a closer look

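Among 39 measures checked for a lone outlying array, 2 showed one. Both are genes chosen for their likeness to an L4 gene. The 39 measures are not independent of each other, so the count cannot be set against a chance rate. AT2G37190, of the L12 family and among the genes most like AT5G02870, had 770 in mix 4, and the gap to the next array was 0.581 of its whole log2 range. AT3G09050, among the genes most like AT3G09630, had 57.6 in mix 6, with a gap of 0.637 of its range. Neither L4 gene, nor their balance, had such an array.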

How the results depend on the processing

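No paired analysis was possible because each mix has 1 array. Of 184 recomputed values, 167 were counted as unchanged, 14 moved further and 3 correlations turned sign. Unchanged meant the same side of p = 0.05 for a permutation test, and within 1.5-fold for an SD, a range, a count or a share. For other values it meant a move smaller than the spread. Some values could not change, such as the balance under scaling to a common median, so the tally is no measure of robustness. Among the 167, 8 ratios of the pair and 3 medians of the ribosomal protein genes, each at most 0.087 from 0 in the report, came to 0 or to its other side. Of the pair's 14 values 2 were past the fold, where 22.6% of all probe sets passed at 1.2-fold. Once arrays shared a median 3 were, in mixes 4, 5 and 6, where 22.2%, 15.8% and 28.2% of all probe sets were lower. After quantile normalization 1 was, in mix 4, where 12.1% of all were lower. At 1.5-fold 0 were, against 2.79% of all, and at 1.1-fold 3 were, against 49.6%. Without the arrays of mixes 4, 5 and 6 (chosen after seeing the data) 0 were, and the share of all probe sets was not computed for that set. Under scaling to a common median, the median ratio of the ribosomal protein genes was -0.18 in mix 4 and -0.10 in mix 5. AT3G09630 was then -0.22 in mix 4 and -0.38 in mix 6. Without the arrays of mixes 4, 5 and 6 the SD of log2 signal was 0.035 for AT3G09630 and 0.062 for AT5G02870, and the balance had an SD of 0.096 and a range of 0.24. As deposited, r between the genes was -0.95 over those 5 arrays, a value with no test, since tests of r were kept to 6 arrays or more. It was not computed after other scalings, under which the order of those arrays was no longer exactly opposite. Leaving out each array in turn, the SD was 0.055 to 0.12 for AT3G09630 and 0.074 to 0.14 for AT5G02870, and r between them was -0.10 to 0.58; of these it was negative only without mix 4, at -0.10. The 3'/5' ratio was first computed from the first-generation control probe sets, and the second-generation ones were made the main setting after those values had been seen; with the first-generation ones r of AT5G02870 with that ratio turned to 0.19. The cause was not tested for any of these. With 1 array a mix, a change the size of the spread between arrays cannot be told from it.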
